A study of Mus musculus with 9 samples.

Results

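The matrix metalloproteinases (MMPs), the ADAMTS proteases and the tissue inhibitors of metalloproteinases (TIMPs) were followed in whole NB9464 tumors. The genes were taken by symbol from the count table, as all Mmp, Adamts and Timp1 to Timp4 symbols with a count above 0 in at least 1 of the 9 libraries. Of 46 matching symbols, 41 had a count, out of 27965 symbols with a count in the whole table. These were 19 of 23 Mmp genes, 18 of 19 Adamts genes and 4 of 4 Timp genes. The other 5, Mmp1a, Mmp1b, Mmp7, Mmp21 and Adamts19, were at 0 in every library. A filter on low counts left 34 genes for testing, 17 Mmp, 14 Adamts and 3 Timp genes.

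NB9464 is a murine neuroblastoma line with amplified MYCN. In all groups the line was grown under the skin of wild-type C57BL/6 mice aged 4 to 6 weeks at implantation. Treatment began once a tumor had reached 250 mm3. A vehicle group of 3 tumors was compared with 3 tumors given R788 + anti-PDL1 and 3 given Rad + R788 + anti-PDL1. R788 (fostamatinib), a prodrug inhibitor of the kinase Syk, was dosed at 50 mg/kg 5 times a week, and the anti-PDL1 antibody (clone 10F.9G2) 4 times a week. The Rad + R788 + anti-PDL1 tumors, called irradiated tumors here, also received 10 Gy. The series text lists 4 treatment doses between day 28 and day 37 without naming the agents. No group received R788 or the antibody alone, so the effects of these agents cannot be told apart, and no group received radiation alone. The labels do not say whether the 3 tumors of a group came from separate experiments, so p-values measure only the spread between these tumors.

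MMPs are zinc proteases that cut collagens, elastin, laminins and other matrix proteins, and some of them also cut chemokines and growth factor precursors. They are made as inactive precursors, and several sit in the cell membrane. ADAMTS proteases are secreted relatives with thrombospondin repeats that process procollagens, proteoglycans and proteins of fibrillin microfibrils. TIMPs bind and block the active enzymes, and TIMP2 also helps the membrane protease encoded by Mmp14 to activate the gelatinase encoded by Mmp2. In tumors these genes are expressed by fibroblasts, endothelium, macrophages, neutrophils and tumor cells. In whole-tumor RNA, fewer cells of a type and less RNA per cell cannot be told apart.

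Estimated counts per library summed to 18276683 to 23397886, and whether reads kept their strand is not given in the sources used here. Levels are given as CPM, counts per 1000000 of the library size after TMM scaling (a correction for differences in RNA composition), as mean ± SD with n = 3 where a mean is given. Irradiated replicate 1 stood apart from the other 8 libraries, with a TMM factor of 0.743 against 0.975 to 1.12 and a mitochondrial share of 1.97% against 3.48% to 5.71%. The cell type of the line was checked against neuroblast markers. Th was at 0 in every library, and Phox2a, Dbh and Chga had 0 to 3 counts. Hand2 was at 325 to 867 CPM and Mycn at 93.3 to 250 CPM, so the tumors carried part of a neuroblast profile and lacked the catecholamine genes.

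In CPM, which is not scaled to gene length, the family was dominated by a few genes. Longer genes weigh more in such shares, and merged exons span 3896 bases in Timp2 against 888 in Timp1. Timp2 alone made up 90.01% to 96.6% of all Timp CPM in each tumor. Mmp2 and Mmp14 together made up 56.7% to 85.1% of Mmp CPM. Adamts10 and Adamts14 made up 47.4% to 61.5% of Adamts CPM. Only 10 of the 41 genes reached 10 CPM in every library, and 6 stayed under 1 CPM in every library.

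Levels of different genes were compared per length, as CPM per kb of merged exons. In vehicle tumors Timp2 led at 168 ± 15.8 CPM per kb, followed by Mmp2 at 77.7 ± 15.9, Mmp14 at 50.7 ± 1.52, Timp1 at 40.6 ± 4.39 and Adamts14 at 17.1 ± 0.60. Each of these 5 genes lay above the next in all 3 tumors. Adamts10 came next at 7.71 ± 0.94 CPM per kb, and its range overlapped that of the macrophage elastase gene Mmp12 at 7.01 ± 1.38. The complex of the TIMP2, MMP14 and MMP2 proteins is a known route of gelatinase activation, and its 3 genes were the 3 highest of the family in vehicle and in R788 + anti-PDL1 tumors. In irradiated tumors Timp1 had a mean of 41.3 ± 30.8 CPM per kb, with a range that overlapped that of Mmp14 at 39.4 ± 8.58. In R788 + anti-PDL1 tumors Mmp9 followed Timp1 at 14.2 ± 9.49 CPM per kb, against 2.93 ± 0.16 in vehicle tumors, with a range that overlapped those of Timp1 and Adamts14.

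**Figure D1:**
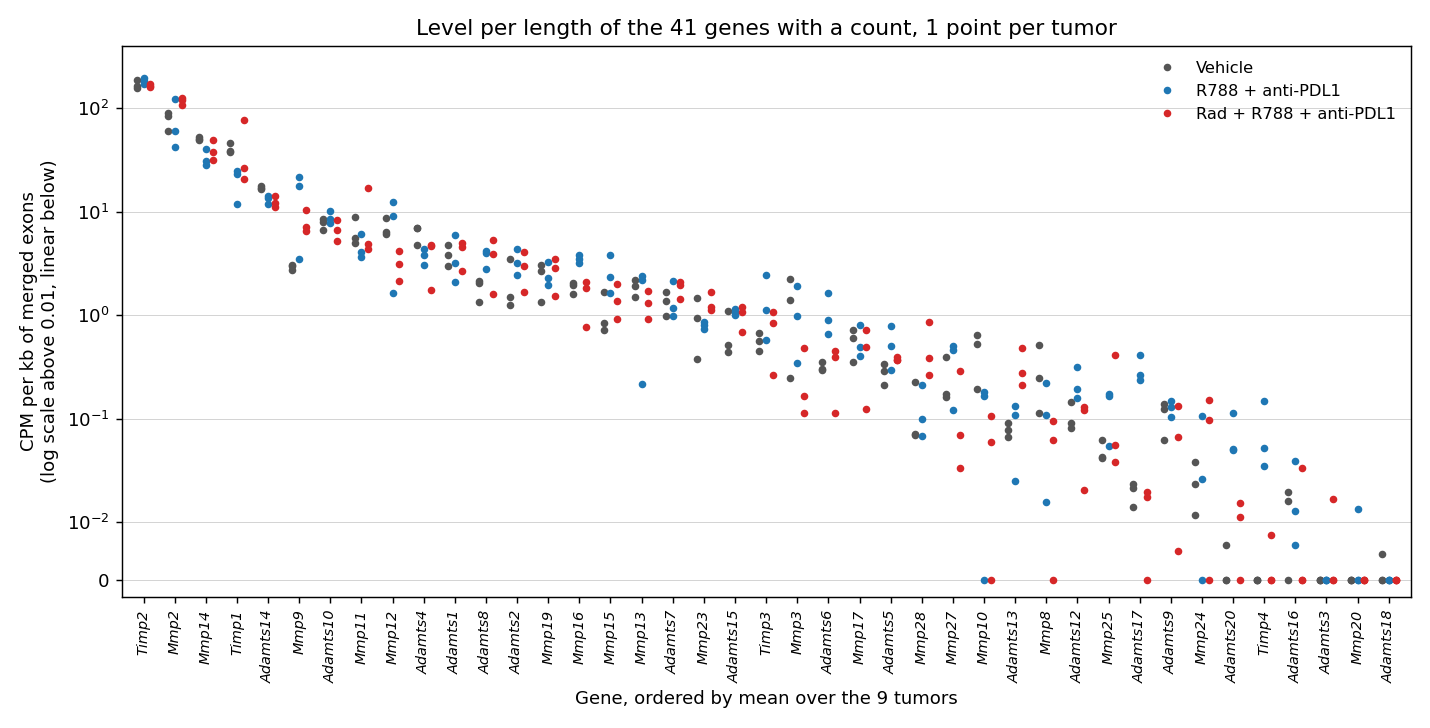
Level of each of the 41 genes in CPM per kb of merged exons (vertical axis, log scale above 0.01 and linear below), with 1 point per tumor colored by group. Timp2, Mmp2 and Mmp14 are at the left, and most genes lie below 10 CPM per kb.

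The summed level of all 41 genes ran from 1590 to 1762 CPM over the 9 tumors with TMM scaling, and from 1279 to 1971 CPM on total counts. Mmp genes summed to 547 to 846 CPM, Adamts genes to 175 to 293 CPM and Timp genes to 644 to 791 CPM. With TMM scaling both treated groups overlapped with vehicle in each of these sums. The treated groups overlapped with each other except in the Timp sum. It was 704.2 to 791 CPM in R788 + anti-PDL1 and 654 to 703.6 CPM in irradiated tumors. On total counts these Timp sums were separate too, at 787.5 to 831 against 522 to 747 CPM. The overlap with vehicle depended on the scaling. On total counts the R788 + anti-PDL1 tumors were above all vehicle tumors in the Timp sum, at 787.5 to 831 against 636 to 748 CPM, and in the Adamts sum, at 265 to 328 against 242 to 260.0 CPM. The sum of all 41 genes on total counts was likewise above vehicle, at 1671 to 1971 against 1602 to 1612 CPM. The ratio of summed Mmp to summed Timp CPM ranged from 0.691 to 1.20. Both ends of that ratio were in treated tumors, with R788 + anti-PDL1 replicate 1 lowest and irradiated replicate 1 highest.

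The first comparison was between R788 + anti-PDL1 and vehicle tumors, and addresses how the drug and antibody acted on established tumors. Adamts17 rose 14.9-fold and was the only gene of the family to pass the test (edgeR quasi-likelihood, Benjamini-Hochberg adjusted p under 0.05). That is 1 of 34 genes, while 0.678% of the 15931 genes tested were called, 0.389% higher and 0.289% lower. At an unadjusted p under 0.05 there were 8 of 34 genes, against 11.7% of all genes. They were 7 genes on the higher side, Adamts5, Adamts6, Adamts8, Adamts17, Mmp9, Mmp15 and Mmp16 (5.96% of all genes), and Mmp14 on the lower side (5.69%). Groups did not overlap for 10 of 34 genes, against 30.1% of all genes, with 6 higher (13.6% of all genes) and 4 lower (16.5%). The median log2 fold change was 0.15 over the 34 genes and -0.02 over all genes, and 23 of the 34 values were above 0, against 48.4% of all genes.

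Adamts17 (chr7:66839735-67153171, plus strand, GRCm38) encodes a secreted protease of connective tissue that is linked to fibrillin microfibrils. Its counts were 3, 4 and 2 in vehicle replicates 1 to 3 and 46, 83 and 45 in the R788 + anti-PDL1 replicates. As levels these were 0.166, 0.180 and 0.110 CPM against 2.03, 3.17 and 1.84 CPM. All 3 treated tumors were far above all vehicle tumors, while the level stayed low next to most of the family. Vehicle and irradiated tumors had at most 4 counts. The gene therefore passed the filter on low counts only through the R788 + anti-PDL1 tumors, where it was high. The log2 fold change was 3.89 ± 0.71 (SE), with an adjusted p of 0.0476. The call was lost without any 1 of the 6 tumors, with adjusted p from 0.105 to 0.296 and log2 fold changes of 3.61 to 4.04. Within 1 Mb of the gene 15 other genes were tested, none was called, and their log2 fold changes ran from -0.81 to 1.58. The 250 bases before its start in RefSeq (GRCm38.p6, chr7:66839485-66839734, plus strand) are printed for this called gene. They held none of the motifs searched in the promoters of the family, which are spelled out with the chromosome 9 cluster further on.
Adamts17: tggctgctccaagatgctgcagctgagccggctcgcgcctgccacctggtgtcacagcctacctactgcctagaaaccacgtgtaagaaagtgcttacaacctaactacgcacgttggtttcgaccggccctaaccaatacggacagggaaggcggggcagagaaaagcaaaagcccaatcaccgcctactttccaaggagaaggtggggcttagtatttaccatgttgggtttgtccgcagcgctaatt

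Adamts6, which encodes a relative of Adamts17 in the same class of microfibril-associated proteases, had 2.37, 2.29 and 2.74 CPM in vehicle tumors and 5.11, 12.7 and 6.93 CPM in R788 + anti-PDL1 tumors. The groups were separate, and the highest value was in R788 + anti-PDL1 replicate 2, as for Adamts17. Its log2 fold change was 1.74 ± 0.53 (adjusted p = 0.218). Adamts12, whose product cuts cartilage oligomeric matrix protein, was at 1.15 ± 0.37 CPM in vehicle and 2.44 ± 0.92 CPM in R788 + anti-PDL1 tumors, also without overlap (adjusted p = 0.585). All 6 tested Adamts genes outside the proteoglycanases and procollagen N-proteinases had log2 fold changes above 0, from 0.10 for Adamts7 to 3.89 for Adamts17.

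Among membrane-type MMPs, 5 of 6 log2 fold changes were above 0 and that of Mmp14 was below. Mmp16 had 16.8, 14.0 and 17.9 CPM in vehicle tumors and 30.2, 27.8 and 33.0 CPM in R788 + anti-PDL1 tumors. All 3 treated values were above all vehicle values, with a log2 fold change of 0.90 ± 0.34 (adjusted p = 0.324). Mmp15 had 9.11, 4.58 and 3.89 CPM in vehicle and 8.82, 20.4 and 12.7 CPM in R788 + anti-PDL1 tumors, where the lowest treated value lay below the highest vehicle value (log2 fold change 1.25 ± 0.46, adjusted p = 0.316). Mmp14 went the other way, with 296, 298 and 313 CPM in vehicle and 169, 240 and 184 CPM in R788 + anti-PDL1 tumors. All 3 treated values were below all vehicle values, at a log2 fold change of -0.62 ± 0.22 (adjusted p = 0.286).

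The gelatinase gene Mmp9 was steady in vehicle tumors, at 10.8, 9.74 and 10.6 CPM. In R788 + anti-PDL1 tumors it was at 76.2, 12.4 and 62.7 CPM. Replicates 1 and 3 were several times higher than vehicle, while replicate 2 was just above the vehicle range. The log2 fold change was 2.28 ± 0.55 (adjusted p = 0.11). It was 2.74 ± 0.25 (adjusted p = 0.0282) without R788 + anti-PDL1 replicate 2, the treated tumor nearest to vehicle. Mmp9 was not called when any other 1 of the 6 tumors was left out. Over 16 alternatives its log2 fold change ran from 1.85 to 2.74, and 4 of them called it. The other gelatinase gene, Mmp2, showed no such shift, with 201, 302 and 282 CPM in vehicle and 141, 411 and 203 CPM in R788 + anti-PDL1 tumors. There replicate 2 was the highest of the 6 tumors, and the fitted log2 fold change was -0.06 ± 0.36 (adjusted p = 0.974).

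Of the proteoglycanase genes, Adamts8 had 6.18, 9.39 and 9.81 CPM in vehicle and 18.4, 12.9 and 19.4 CPM in R788 + anti-PDL1 tumors. The groups were separate, at a log2 fold change of 0.998 ± 0.412 (adjusted p = 0.384). Adamts5, an aggrecanase gene, was at 3.04 ± 0.70 CPM in vehicle and 5.71 ± 2.62 CPM in R788 + anti-PDL1 tumors with overlapping ranges (adjusted p = 0.426). The other aggrecanase gene, Adamts4, had 23.1, 33.6 and 33.3 CPM in vehicle against 21.0, 14.7 and 18.5 CPM in R788 + anti-PDL1 tumors, all lower (log2 fold change -0.73 ± 0.37, adjusted p = 0.501). Adamts8 shares 489 bases of exon with Gm29724 on the other strand. Without strand information, reads from such partners cannot be told apart.

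Adamts14, one of the genes for enzymes that trim the N-terminal end of procollagens, was at 88.0, 92.2 and 86.2 CPM in vehicle and 62.3, 74.1 and 71.1 CPM in R788 + anti-PDL1 tumors. It was lower in all 3 treated tumors (log2 fold change -0.36 ± 0.17, adjusted p = 0.461). Adamts2, with the same enzymatic role, was at 19.5 ± 11.4 and 31.1 ± 8.82 CPM with overlapping groups.

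Inhibitor genes differed from one another. Timp1, which encodes a soluble inhibitor, had 40.5, 34.1 and 33.5 CPM in vehicle and 22.0, 10.6 and 20.7 CPM in R788 + anti-PDL1 tumors, lower in all 3 (log2 fold change -1.02 ± 0.48, adjusted p = 0.455). Timp2 had 723, 605 and 635 CPM against 764, 673 and 718 CPM, with overlap (log2 fold change 0.13 ± 0.18, adjusted p = 0.838). Timp3, whose product binds to the matrix and also inhibits ADAMTS enzymes, had 3.70, 4.63 and 5.48 CPM against 4.67, 19.7 and 9.22 CPM. Its values overlapped and the highest was again R788 + anti-PDL1 replicate 2 (log2 fold change 1.28 ± 0.60, adjusted p = 0.456). Timp3 shares 1733 bases of exon with Syn3 on the other strand, and Timp1 lies inside an intron of Syn1.

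Timp4 was too low to be tested. It had 0 counts in all vehicle tumors, 7, 23 and 5 counts in R788 + anti-PDL1 tumors and 0, 0 and 1 counts in irradiated tumors. With vehicle set to the 3 counts per library that a count of 0 allows, the R788 + anti-PDL1 level was at least 2.996-fold higher. Adamts20, a proteoglycanase gene below the filter, had 0, 0 and 1 counts in vehicle and 23, 12 and 11 counts in R788 + anti-PDL1 tumors. It had 0, 2 and 3 counts in irradiated tumors. Floors and counting limits cover counting error only. The other 5 untested genes were low in every tumor, with at most 0.268 CPM for Adamts16, 0.0449 for Adamts18, 0.0913 for Adamts3, 1.10 for the stromelysin gene Mmp10 and 0.0441 for Mmp20.

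**Figure D2:**
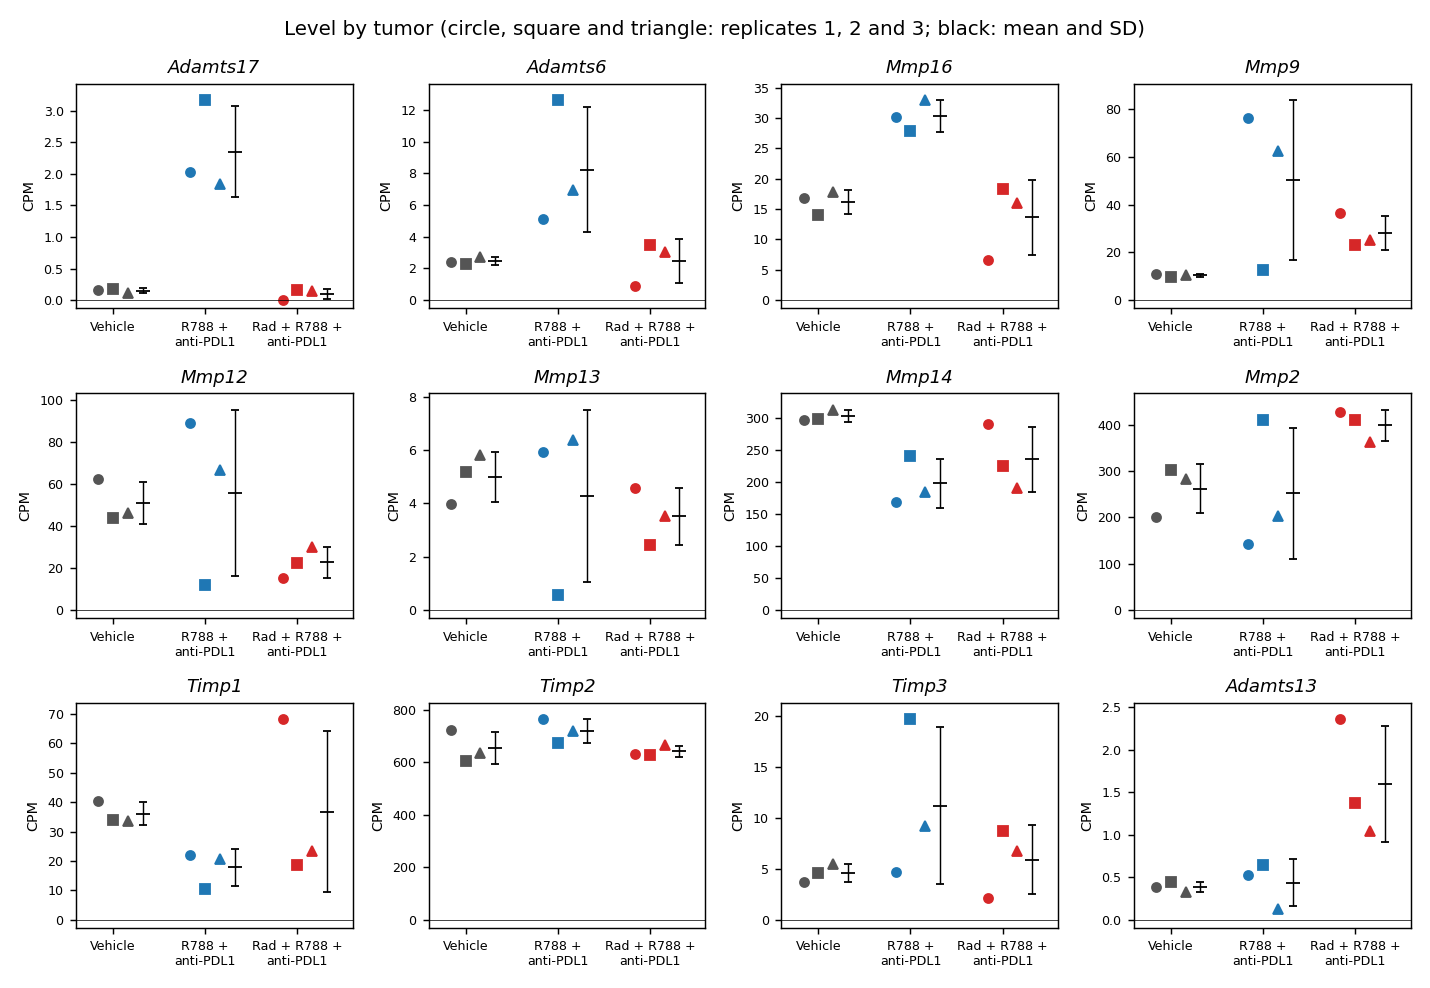
CPM of 12 genes in each tumor (vertical axes start at 0), with circle, square and triangle for replicates 1, 2 and 3 of each group and the mean ± SD in black. Adamts17, Adamts6 and Mmp16 are highest in R788 + anti-PDL1 tumors, while the square of that group is low for Mmp9, Mmp12 and Mmp13 and high for Mmp2 and Timp3.

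The calls in this comparison rested on the spread shared over all 9 libraries. Leaving out irradiated replicate 1, which is in neither group, left 36 genes of the family to test. This fit called 6, Adamts6, Adamts8, Adamts17, Adamts20, Mmp9 and Mmp16, against 5.15% of all genes tested. In it 14 were at an unadjusted p under 0.05, where the share of all genes was 23.2%. DESeq2, the tool the authors used, called Adamts6, Adamts17 and Mmp9 with all 9 libraries, against 4.83% of all genes. Without irradiated replicate 1 it called 11 of 36, against 12.6%. A fit of only the 6 libraries compared tested 31 genes of the family and called Adamts17, Adamts20 and Mmp16, against 3.84%. Adamts20, like Adamts17, passed the filter in these fits only through the R788 + anti-PDL1 tumors. Leaving out vehicle replicate 2, vehicle replicate 3 or R788 + anti-PDL1 replicate 3 reduced the 8 genes at an unadjusted p under 0.05 to 5, with 8.79%, 7.49% and 7.16% of all genes in these fits.

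The second comparison set irradiated tumors against vehicle tumors, the full combination against no treatment. None of the 34 genes passed the edgeR test, where 0.0439% of all genes were called, and DESeq2 called none either, against 3.85%. DESeq2 called 1 of 36 genes, Adamts8, once irradiated replicate 1 was left out, against 5.66%. A fit of only the 6 libraries compared called none of 29 genes, against 0.00667%. At an unadjusted p under 0.05 there were 6 genes, against 13.2% of all genes. Adamts8, Adamts13, Mmp9 and Mmp28 were on the higher side (7.71% of all genes) and Adamts14 and Mmp3 on the lower side (5.51%). Groups did not overlap for 10 genes, against 20.5% of all genes, with 5 higher (9.27% of all genes) and 5 lower (11.2%). The median log2 fold change was 0.05 over the 34 genes and 0.05 over all genes, and 19 of the 34 values were above 0, against 52.9% of all genes. Leaving out vehicle replicate 2 or vehicle replicate 3 reduced the 6 genes to 1, with 7.06% and 6.56% of all genes.

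Mmp9 was again higher, at 36.4, 23.1 and 25.2 CPM in irradiated tumors against 9.74 to 10.8 CPM in vehicle. All 3 irradiated values were above all vehicle values and lay closer together than those of the R788 + anti-PDL1 tumors. The log2 fold change was 1.44 ± 0.53 (adjusted p = 0.329). Mmp2 was at 426, 409 and 361 CPM in irradiated tumors, above the vehicle maximum of 302 CPM in every tumor (log2 fold change 0.61 ± 0.36, adjusted p = 0.448). Both gelatinase genes thus had separate groups, without passing the test.

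Mmp12, which encodes the macrophage elastase, had 62.2, 43.8 and 46.1 CPM in vehicle and 15.4, 22.4 and 30.0 CPM in irradiated tumors. The groups were separate, with a log2 fold change of -1.16 ± 0.58 (adjusted p = 0.403). The collagenase gene Mmp8 was at 0.71 ± 0.50 CPM in vehicle and 0.13 ± 0.12 CPM in irradiated tumors (adjusted p = 0.383). Its counts were 5, 28 and 11 in vehicle and 0, 3 and 5 in irradiated tumors, the latter near the floor of 3 counts. Mmp3, the gene of stromelysin, had 0.442, 4.00 and 2.52 CPM in vehicle and 0.295, 0.203 and 0.868 CPM in irradiated tumors. Its ranges overlapped through vehicle replicate 1, and the log2 fold change was -2.31 ± 0.94 (adjusted p = 0.354). Mmp13, the other collagenase gene with a count, overlapped at 4.98 ± 0.93 and 3.51 ± 1.07 CPM.

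A further pair of genes was separate at low levels. Adamts13 encodes the protease that cuts von Willebrand factor, and had 0.386, 0.449 and 0.329 CPM in vehicle and 2.36, 1.37 and 1.05 CPM in irradiated tumors (log2 fold change 2.01 ± 0.67, adjusted p = 0.291). Mmp28, the gene of epilysin, a protease known from keratinocytes, had 0.276, 0.269 and 0.877 CPM in vehicle and 3.32, 1.01 and 1.51 CPM in irradiated tumors (log2 fold change 2.02 ± 0.74, adjusted p = 0.326). For both genes irradiated replicate 1 was the highest of the 9 tumors, and without it the log2 fold changes were 1.65 for Adamts13 and 1.44 for Mmp28. Mmp28 shares 466 bases of exon with 1700020L24Rik on the other strand. Of 6 keratinocyte markers, 6 had a count, and their summed level was 7.95 to 8.71 CPM in vehicle, 2.16 to 64.2 in R788 + anti-PDL1 and 47.4 to 76.0 in irradiated tumors. Nearly all of it was Krt5 in treated tumors, where Krt14 was at 0 in 5 of 6 libraries and Krt1 in all. R788 + anti-PDL1 replicate 2, with a sum of 64.2 CPM, had only 0.382 CPM of Mmp28. The part of these cells in the Mmp28 values was not tested.

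Several ADAMTS genes had separate groups at small differences. Adamts14 was at 58.3, 73.9 and 63.3 CPM in irradiated tumors, below the vehicle minimum of 86.2 CPM in each (log2 fold change -0.45 ± 0.17, adjusted p = 0.334). Adamts4 was at 8.33, 22.6 and 22.7 CPM, also below vehicle in each tumor (adjusted p = 0.40). Adamts5 was slightly above vehicle, at 4.07 ± 0.12 CPM against 3.04 ± 0.70 (adjusted p = 0.613). Adamts8 was at 7.38, 24.5 and 18.1 CPM, where replicate 1 fell within the vehicle range (log2 fold change 0.98 ± 0.41, adjusted p = 0.362).

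Mmp14 was at 291, 224 and 190 CPM in irradiated tumors, all just or clearly below the vehicle minimum of 296 CPM (log2 fold change -0.36 ± 0.22, adjusted p = 0.449). The TIMP genes overlapped with vehicle. Timp1 had 68.1, 18.6 and 23.4 CPM in irradiated tumors, with replicate 1 the highest of all 9 tumors and the other two below vehicle (log2 fold change 0.02 ± 0.47, and -0.75 without irradiated replicate 1). Timp2 was at 633, 627 and 666 CPM (log2 fold change -0.03 ± 0.18), and Timp3 at 2.14, 8.73 and 6.80 CPM (log2 fold change 0.36 ± 0.59).

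The third comparison, irradiated against R788 + anti-PDL1 tumors, addresses what radiation added. None of the 34 genes passed the edgeR test, where 0.00628% of all genes were called. DESeq2 called Adamts6, Adamts17 and Mmp16, all lower, against 5.18% of all genes. Without irradiated replicate 1 it called 2 of 36 genes, Adamts6 and Mmp16, against 5.19%. At an unadjusted p under 0.05 there were 5 genes, against 18.4% of all genes. Adamts13 and Mmp28 were on the higher side (11.7% of all genes) and Adamts6, Adamts17 and Mmp16 on the lower side (6.65%). Without irradiated replicate 2, irradiated replicate 3 or R788 + anti-PDL1 replicate 2 there were 8, 12 and 8, with 21.7%, 24.6% and 16.3% of all genes. Groups did not overlap for 8 genes, against 27.4% of all genes, with 3 higher (14.2%) and 5 lower (13.2%). The median log2 fold change was -0.18 over the 34 genes and 0.04 over all genes, and 12 of the 34 values were above 0, against 52.5% of all genes. This comparison shares the R788 + anti-PDL1 tumors with the first and the irradiated tumors with the second, so the values are given side by side and not counted as separate support.

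Adamts17 was at 0, 0.152 and 0.137 CPM in irradiated tumors (0, 3 and 3 counts), against 1.84 to 3.17 CPM in R788 + anti-PDL1 tumors. Irradiated and vehicle values overlapped, and all 6 were far below the R788 + anti-PDL1 tumors. The log2 fold change was -4.42 ± 0.74 (adjusted p = 0.133). Adamts6 was at 0.885, 3.50 and 3.06 CPM in irradiated tumors, below the R788 + anti-PDL1 minimum of 5.11 CPM (log2 fold change -1.72 ± 0.53, adjusted p = 0.222). Mmp16 was at 6.64, 18.3 and 16.0 CPM, below the R788 + anti-PDL1 minimum of 27.8 CPM (log2 fold change -1.15 ± 0.34, adjusted p = 0.222). In each of the 3 genes the irradiated tumors were separate from R788 + anti-PDL1 and overlapped with vehicle.

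Adamts13 and Mmp28 were higher in irradiated than in R788 + anti-PDL1 tumors without overlap, at log2 fold changes of 1.85 ± 0.65 (adjusted p = 0.227) and 1.97 ± 0.73 (adjusted p = 0.236). Adamts13 was at 0.529, 0.650 and 0.123 CPM and Mmp28 at 0.265, 0.382 and 0.820 CPM in R788 + anti-PDL1 tumors, overlapping with vehicle for both genes. The membrane-anchored protease gene Mmp23 was at 1.87 ± 0.15 CPM in R788 + anti-PDL1 and 3.11 ± 0.70 CPM in irradiated tumors (adjusted p = 0.425). Adamts12 was at 0.221, 1.32 and 1.42 CPM in irradiated tumors against at least 1.72 CPM (adjusted p = 0.303). Timp2 was lower in all 3 irradiated tumors by a small margin, at 642 ± 21.2 against 718 ± 45.6 CPM (log2 fold change -0.16 ± 0.18, adjusted p = 0.637). Mmp9 overlapped between the treated groups (log2 fold change -0.84 ± 0.52, adjusted p = 0.391), as did Mmp2 (0.66 ± 0.36, adjusted p = 0.332), Mmp14 (0.25 ± 0.22, adjusted p = 0.522), Timp1 (1.04 ± 0.48, adjusted p = 0.277, and 0.25 without irradiated replicate 1) and Timp3 (-0.92 ± 0.59, adjusted p = 0.402).

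**Figure D3:**
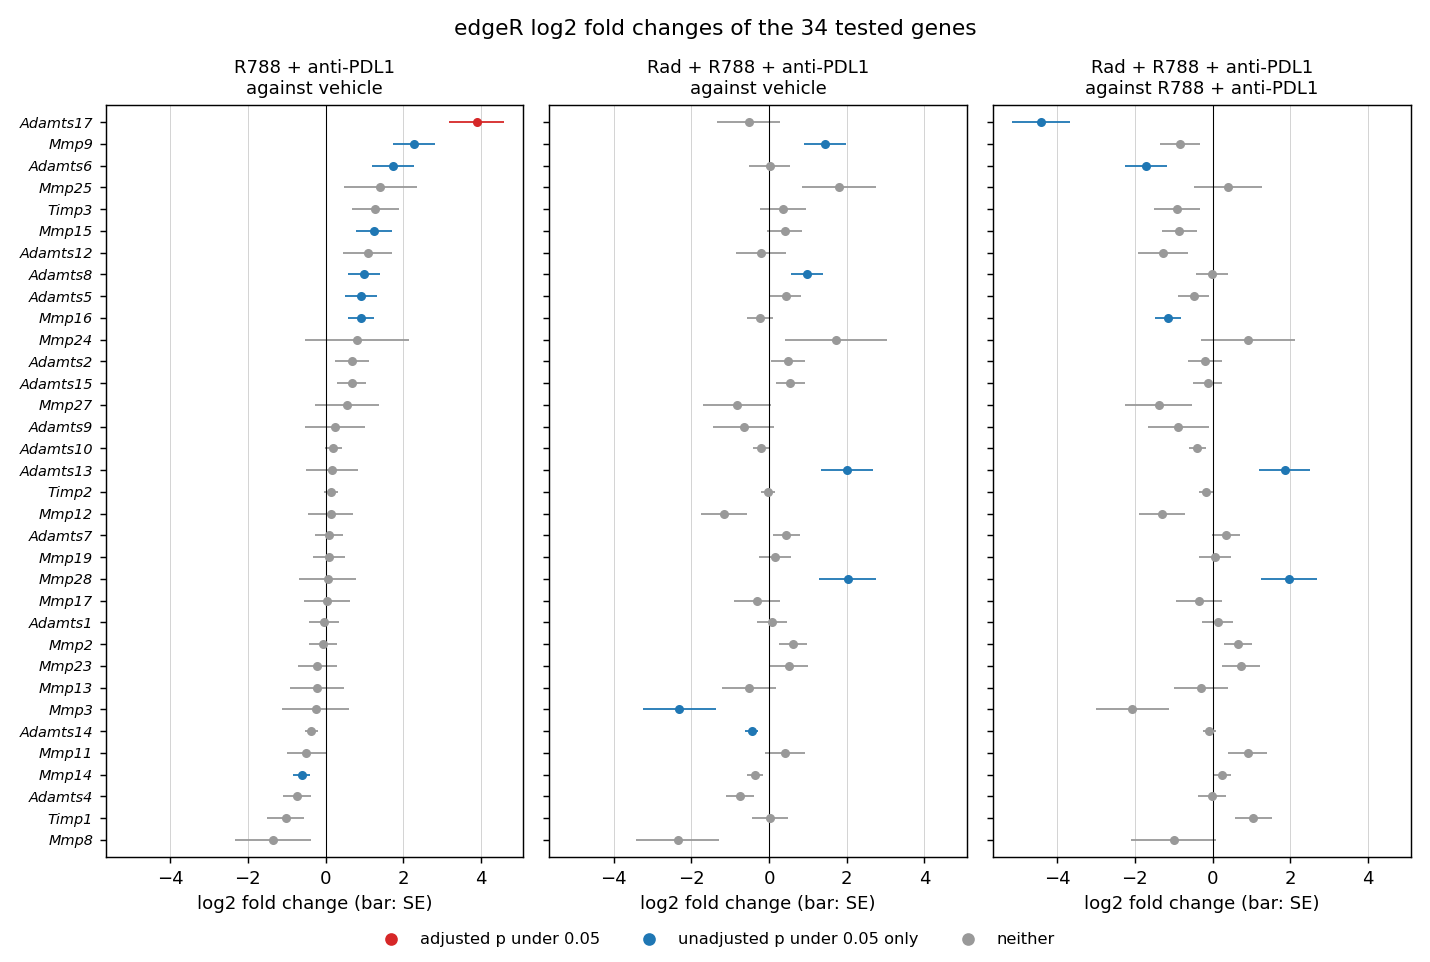
Fitted edgeR log2 fold change (horizontal axis) with its SE for the 34 tested genes, ordered by the first comparison, in 3 panels with 1 comparison each. Adamts17 is the only gene at an adjusted p under 0.05, in the left panel, and the 8, 6 and 5 genes at an unadjusted p under 0.05 differ in part between panels.

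R788 + anti-PDL1 replicate 2 differed from its 2 group mates in several genes of the family. Mmp12 was at 88.9, 11.8 and 66.4 CPM in replicates 1 to 3 and Mmp13 at 5.91, 0.573 and 6.39 CPM, in parallel with the values of 76.2, 12.4 and 62.7 CPM for Mmp9. Replicate 2 was the lowest of all 9 tumors for Mmp12 and Mmp13. It was the highest of the 9 for Timp3 at 19.7 CPM, for Mmp15 at 20.4 CPM, for Adamts5 at 8.45 CPM and for Adamts6 at 12.7 CPM.

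The marker sums of this tumor differed for some cell types. Its 6 endothelial markers summed to 119 CPM against 34.2 to 66.1 CPM in the other 8 tumors. Its 8 fibroblast markers summed to 5394 CPM against 2533 to 4944 CPM, and its 5 pericyte markers to 384 CPM against 162 to 276 CPM. All 3 sums were the highest of the 9 tumors. Its 8 macrophage markers summed to 401 CPM, beside 439 and 446 CPM in replicates 1 and 3, but its members went different ways. Cd68 was at 65.7, 31.2 and 58.0 CPM in replicates 1 to 3 and Csf1r at 41.4, 78.3 and 49.7 CPM. Some marker levels were low in replicate 2, as Mmp9, Mmp12 and Mmp13 were. The 6 T cell markers summed to 23.8, 4.13 and 13.4 CPM in replicates 1 to 3. Most of this was Cd4, at 22.9, 2.03 and 12.2 CPM. Cd3e, Cd3g and Cd8a were instead highest in replicate 2 of this group, at 0.191, 0.650 and 0.955 CPM. Cd3d and Trac were highest in its replicate 3. The 7 cartilage and bone markers with a count, of 8, summed to 101.8, 44.9 and 79.3 CPM in replicates 1 to 3. Among the latter Acp5, a gene of osteoclasts and macrophages, was at 24.5, 5.50 and 17.4 CPM. The macrophage sum was 186 to 389 CPM in vehicle tumors and 393, 232 and 1257 CPM in irradiated tumors. The highest of these, irradiated replicate 3, had 25.2 CPM of Mmp9 and 30.0 CPM of Mmp12. Of 6 markers of neutrophils, a known source of Mmp8 and Mmp9, 5 had a count, and Ly6g was at 0 in every library. Their sum was 2.26 to 8.53 CPM in vehicle, 1.94 to 3.02 in R788 + anti-PDL1 and 2.79 to 5.09 CPM in irradiated tumors. S100a8 fell without overlap from 0.607 to 3.37 CPM in vehicle to 0.164 to 0.344 CPM in R788 + anti-PDL1 tumors. S100a9 did so from 0.883 to 4.00 CPM to 0.0882 to 0.382 CPM. Cxcr2 overlapped, at 0.663 to 2.02 and 1.56 to 2.29 CPM. Retnlg and Mpo had at most 9 and 4 counts. In the pericyte list Acta2 was at 27.2 to 28.7 CPM in R788 + anti-PDL1 tumors and at 7.54 to 14.2 CPM in both other groups. This was the same order of groups as for Adamts17, Adamts6 and Mmp16, but no other pericyte marker was separate in this way. Cspg4 was at 29.1 to 35.8 CPM in vehicle, 41.4 to 57.6 in R788 + anti-PDL1 and 59.1 to 77.4 CPM in irradiated tumors. Pdgfrb, Rgs5 and Notch3 overlapped between the groups. The part of macrophages, neutrophils, T cells, fibroblasts, pericytes, endothelium or cells of bone in the values of any of these genes was not tested.

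**Figure D4:**
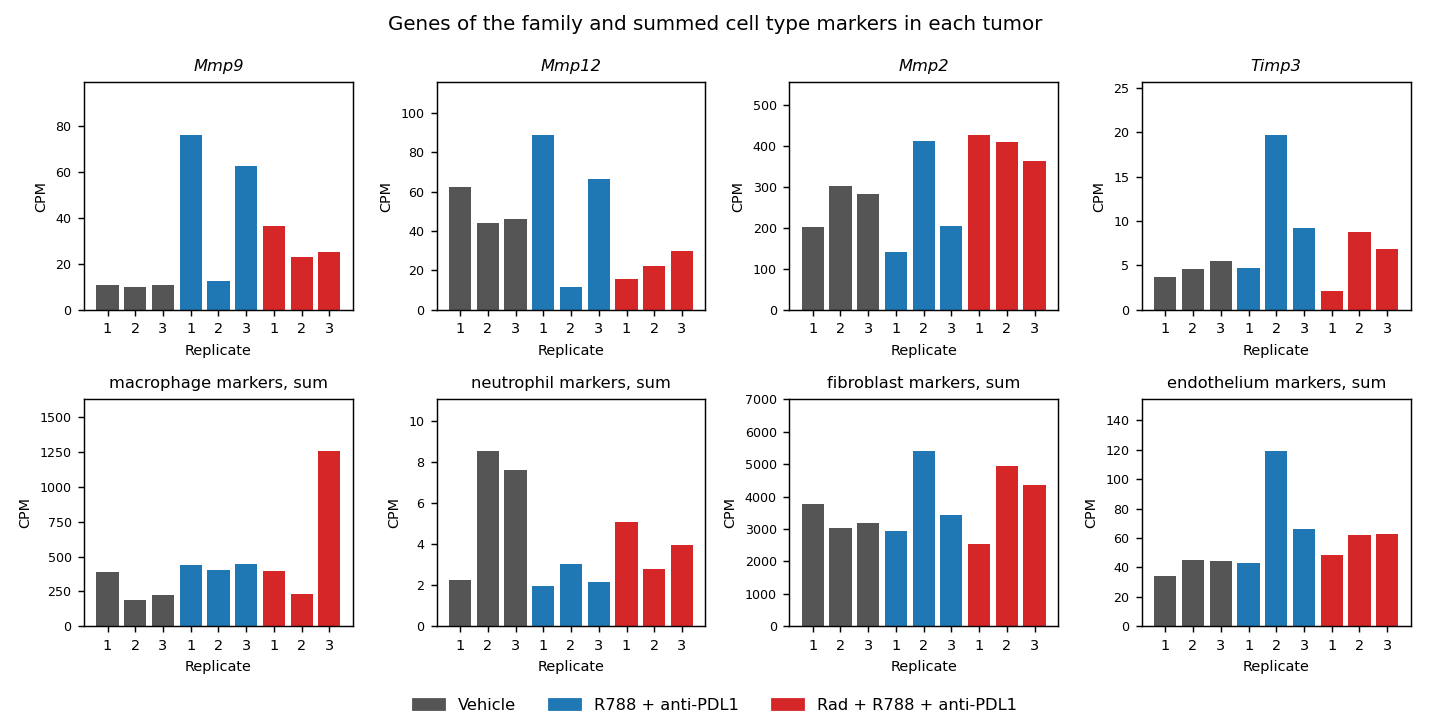
Level in CPM of Mmp9, Mmp12, Mmp2 and Timp3 (top) and summed CPM of macrophage, neutrophil, fibroblast and endothelial markers (bottom), with 1 bar per tumor colored by group and labelled by replicate. The second R788 + anti-PDL1 tumor is low for Mmp9 and Mmp12 while its macrophage sum is level with its group, and it has the highest fibroblast and endothelial sums.

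A run of 10 Mmp genes lies within 427 kb of chromosome 9 (chr9:7272514-7699585, GRCm38). In these tumors 7 of the 10 had a count and 5 were tested, while Mmp1a, Mmp1b and Mmp7 were at 0 throughout. Per length, Mmp12 was the highest of the run in vehicle tumors at 7.01 ± 1.38 CPM per kb, and Mmp13 at 1.86 ± 0.35 overlapped with Mmp3 at 1.29 ± 0.99. Apart from Mmp12 and Mmp13, no gene of the run exceeded 4.00 CPM in any tumor. Mmp12 shares 157 bases of exon with Mmp1b on the other strand, and Mmp1b itself had no count.

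Promoter sequences from RefSeq (GRCm38.p6) covered 32 of the 46 symbols, among them all 10 genes of the cluster. The 250 bases before each start were searched on both strands for the AP-1 motif TGANTCA, the TATA motif TATAAA and the GC box GGGCGG. Of the 10 cluster genes, 8 held an AP-1 motif, all but Mmp8 and Mmp27. Among the other 22 genes of the family with a promoter, 0 held it, and the share over all 32851 promoter windows was 6.75%. The TATA motif was in 9 of the 32 genes, against 12.4% of all windows, and the GC box in 16, against 32.7%. The units differ, since a gene counted when any of its starts held the motif. The 32 genes had 35 windows, while the share over all promoters counts each window. A match is a description of the letters and no evidence of binding. The last 100 bases before the start are printed for 4 cluster genes that share the motif, from Mmp12, the highest per length, through Mmp13 and Mmp3 to Mmp10, which was too low to be tested. Mmp14 and Timp2, 2 of the highest genes of the family, are printed beside them. Capitals mark AP-1, TATA and GC box motifs, and all are written 5′ to 3′ on the gene's strand.
Mmp13 (chr9:7272414-7272513, plus strand): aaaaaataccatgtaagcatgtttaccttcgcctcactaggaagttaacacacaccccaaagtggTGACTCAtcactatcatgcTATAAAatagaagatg
Mmp12, second start (chr9:7347274-7347373, plus strand): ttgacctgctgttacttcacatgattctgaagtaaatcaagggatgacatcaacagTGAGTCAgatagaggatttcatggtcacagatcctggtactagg
Mmp3 (chr9:7445722-7445821, plus strand): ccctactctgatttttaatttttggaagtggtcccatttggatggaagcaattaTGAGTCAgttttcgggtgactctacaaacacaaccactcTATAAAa
Mmp10 (chr9:7502242-7502341, plus strand): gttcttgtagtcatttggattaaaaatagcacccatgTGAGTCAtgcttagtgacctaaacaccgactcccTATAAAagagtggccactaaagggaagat
Mmp14 (chr14:54431498-54431597, plus strand): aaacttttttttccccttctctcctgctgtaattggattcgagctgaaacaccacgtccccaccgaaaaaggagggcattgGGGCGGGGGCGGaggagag
Timp2 (chr11:118355412-118355511, minus strand): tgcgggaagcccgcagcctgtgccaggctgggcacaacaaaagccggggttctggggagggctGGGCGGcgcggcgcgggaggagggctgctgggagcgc

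In these windows the AP-1 motif began 35 bases before the start in Mmp13, 44 in Mmp12, 46 in Mmp3 and 63 in Mmp10. Mmp13, Mmp3 and Mmp10 also held a TATA motif closer to the start, while Mmp12 held none in this window. The first Mmp12 start had neither motif. Mmp14 and Timp2 held GC boxes only. Mmp10 had at most 1.10 CPM and Mmp3 at most 4.00 CPM, both in vehicle tumors, against 88.9 CPM for Mmp12.

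Genes that work with the family were counted from 3 lists. Of 24 genes for activators, inhibitors and partners, such as plasminogen activators, furin and Reck, 20 were tested and none passed in any of the 3 comparisons. At an unadjusted p under 0.05 there were 6, 4 and 5 of these 20 genes in the R788 + anti-PDL1, irradiated and irradiated against R788 + anti-PDL1 comparisons, beside 11.7%, 13.2% and 18.4% of all genes. Of 22 other matrix proteases 18 were tested, and only Adam12 passed, in the first comparison, while 5, 3 and 3 had an unadjusted p under 0.05. Adam12, a membrane-anchored relative of the ADAMTS genes, rose from 8.72, 6.42 and 4.60 CPM in vehicle to 24.7, 25.3 and 24.8 CPM in R788 + anti-PDL1 tumors (log2 fold change 1.92 ± 0.31, adjusted p = 0.0383). This call was lost when replicate 2 or 3 of vehicle was left out, and likewise replicate 1 or 3 of the treated group, since 0 of all genes were then called. In irradiated tumors it was at 7.01, 12.8 and 11.7 CPM, between the other groups in 2 of 3 tumors (log2 fold change 0.68 ± 0.31 against vehicle, adjusted p = 0.381). Of 23 proteoglycan and glycoprotein substrate genes 17 were tested and none passed. At an unadjusted p under 0.05 there were 6, 5 and 5 in the 3 comparisons, beside the same 11.7%, 13.2% and 18.4% of all genes.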

How the data were processed

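RNA-seq of 9 whole tumors was used, grouped by treatment label, 3 per group. Per the labels, poly(A) mRNA was sequenced, and the submitters' processing notes name STAR 2.6.1d, Salmon 1.4.0 and build mm10. The values deposited by the authors are estimated counts that Salmon gave, listed by gene symbol without normalization. They are whole numbers, so rounding was inferred. The extraction text names macrophages as RNA source although the tissue label is whole tumor, and the sequencer differs between labels and paper. Symbols were matched to GENCODE M21 (GRCm38) for coordinates and exon lengths.

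Of 54429 symbols, 15931 passed filterByExpr (minimum count 10). Counts were TMM-normalized and tested over the whole table with edgeR 4.0.16 (R 4.3.3; robust glmQLFit and glmQLFTest, two-sided, all 9 libraries, no covariate), and adjusted by Benjamini-Hochberg over all genes. The procedure was tested on simulated data. DESeq2 1.42.0, limma-voom (limma 3.58.1), other normalizations and filters, fewer libraries and a replicate block were alternatives. Fits without irradiated replicate 1 beyond its own comparisons, and counts at an unadjusted p or without overlap under each alternative, were added after seeing the data. Named genes were those called, at an unadjusted p under 0.05 or without overlap, plus all Timp genes, Mmp2, Mmp9 and Mmp14. Genes and lists were chosen with earlier results of these data known. A floor of 3 counts was 0.115 to 0.221 CPM.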

Additional observations from a re-analysis of the deposited data

How the results depend on the processing

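In R788 + anti-PDL1 against vehicle the 1 called gene of the family became 3 with DESeq2 (Adamts6, Adamts17, Mmp9). With only the 6 libraries compared it became 3 of the 31 then tested (Adamts17, Adamts20, Mmp16). It became 0 with at least 10 counts in every library, where Adamts17 was no longer tested, and 0 to 1 when 1 tumor of the compared groups was left out, the 1 being Mmp9 without R788 + anti-PDL1 replicate 2. Without irradiated replicate 1, an alternative added after seeing the data, it became 6 of 36 with edgeR and 11 of 36 with DESeq2. In irradiated against vehicle tumors DESeq2 without irradiated replicate 1 called 1 (Adamts8). In irradiated against R788 + anti-PDL1 tumors DESeq2 called 3, and 2 without irradiated replicate 1 (Adamts6, Mmp16). The common dispersion was 0.146 with and 0.0870 without this library. Calls over all genes, 108, 7 and 1 in the 3 comparisons, became 770, 613 and 825 with DESeq2, 199, 70 and 24 without the filter, and 594, 1 and 0 with only the libraries compared. limma-voom called 8 in the third. Leaving out 1 tumor gave 0 to 75, 1 to 57 and 0 to 21.

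With the replicate number as a block, 0 genes of the family and 0, 3 and 0 of all genes were called in the 3 comparisons (Adamts17 had an adjusted p of 0.0972). Deviations from the group means correlated at -0.05 to 0.23 between same-numbered tumors. Tumors with different numbers were not correlated for reference, so these values cannot decide whether the numbers pair the tumors.

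Of 43 log2 fold changes of named genes, 39 kept their direction in every alternative, and the other 4 were not called in any. Mmp2 against vehicle in R788 + anti-PDL1 tumors was 0.041 with upper-quartile normalization and -0.61 to 0.23 with 1 tumor left out. In irradiated tumors against vehicle, Timp1 was -0.27 with limma-voom, -0.19 with the block, -0.77 with DESeq2 without irradiated replicate 1 and -0.75 to 0.33 with 1 tumor left out. Timp2 was 0.0023 with DESeq2, 0.0022 with RLE, 0.034 with upper-quartile normalization and -0.086 to 0.060 with 1 tumor left out, and Timp3 was -0.035 to 0.78 with 1 tumor left out. The causes were not tested. Adamts17 had 2 to 4 counts in each vehicle tumor, which limits the precision of its fold change.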
